A study of Mus musculus with 6 samples.

Results

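The collagen chain genes encode the alpha chains that assemble in trimers into the collagen proteins of the extracellular matrix. They were chosen by symbol alone, as every gene named Col, a number, the letter a and a number, and 44 of the 21938 genes measured met this rule. They were followed in the soft palate, the muscular rear portion of the palate, of mouse embryos at E14.0, where RNA sequencing gave 3 libraries of controls, numbered 1, 2 and 3, and 3 of mutants, numbered 5, 6 and 7. The mutants were Osr2-Cre;b-catenin fl/fl, in which a Cre recombinase under the control of Osr2, a gene of the palatal mesenchyme, acts on floxed alleles of b-catenin, a cadherin partner and the transcriptional effector of canonical Wnt signalling. The controls were b-catenin fl/fl per the labels' protocol, so both groups carry the floxed alleles, while another label of the controls reads wild type. Only the mutants carry the Cre, so the Cre allele and the loss of b-catenin cannot be told apart. The labels do not say whether a library came from 1 embryo or from a pool, and the p-values therefore reflect how much these libraries varied, which may be in part technical.

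Each collagen chain carries a long stretch of repeats in which glycine recurs at regular places, and chains wind around each other into a triple helix in the endoplasmic reticulum. Fibrillar chains form the banded fibrils of bone, tendon, skin and cartilage, and FACIT chains (fibril-associated collagens with interrupted triple helices) sit on the surface of those fibrils. Type IV chains form the net of basement membranes, type VI chains form beaded filaments between basement membranes and fibrils, and transmembrane chains sit in the cell membrane. In the developing palate, collagens are made mainly by mesenchymal cells, with some chains made by epithelium, vessels, muscle and the cartilage and bone that form nearby.

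The deposited values were CPM, read counts of each gene scaled to an equal total in every library. The spacing of low values put the counted reads at 10014476 to 15080264 per library, so that 3 reads corresponded to 0.199 to 0.300 CPM. All 8 palatal mesenchyme markers examined (Osr1, Prrx1, Prrx2, Twist1, Meox2, Tbx22, Pdgfra and Msx1) were at or above 1 CPM in all 6 libraries. Ctnnb1, the gene of b-catenin, measured 718 ± 59.0 CPM in controls and 599.8 ± 29.1 CPM in mutants (SD, n = 3 each), with no overlap but an adjusted p of 0.183 in limma. Osr2 itself was lower in mutants, at 16.1 ± 3.22 against 46.9 ± 11.2 CPM (limma adjusted p = 0.0285).

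The 44 chains took between 1.04% and 1.68% of each library. Their summed level was 13818 ± 3042 CPM in controls and 12357 ± 1906 CPM in mutants (SD, n = 3 each), and the groups overlapped. Per kilobase of transcript, which allows genes to be compared, Col1a1 was the most abundant with a mean of 485 CPM per kb, followed by Col3a1 with 356 and Col1a2 with 313. The next chains were far lower: Col12a1 at 84.7, Col5a1 at 83.1, Col4a1 at 73.3, Col6a2 at 70.2, Col6a3 at 70.0 and Col5a2 at 69.5 CPM per kb. At the other end stood Col4a3 at 0.0900 CPM per kb, and Col4a3 and Col6a5 were the 2 members with a mean under 1 CPM. Of the 44, 35 were at or above the median level over all genes, 10.2 CPM. By class, fibrillar chains held 63.4% to 67.0% of all collagen CPM, FACIT chains 9.89% to 12.4%, type VI chains 8.01% to 10.9% and type IV chains 6.13% to 7.19%.

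**Figure D1:**
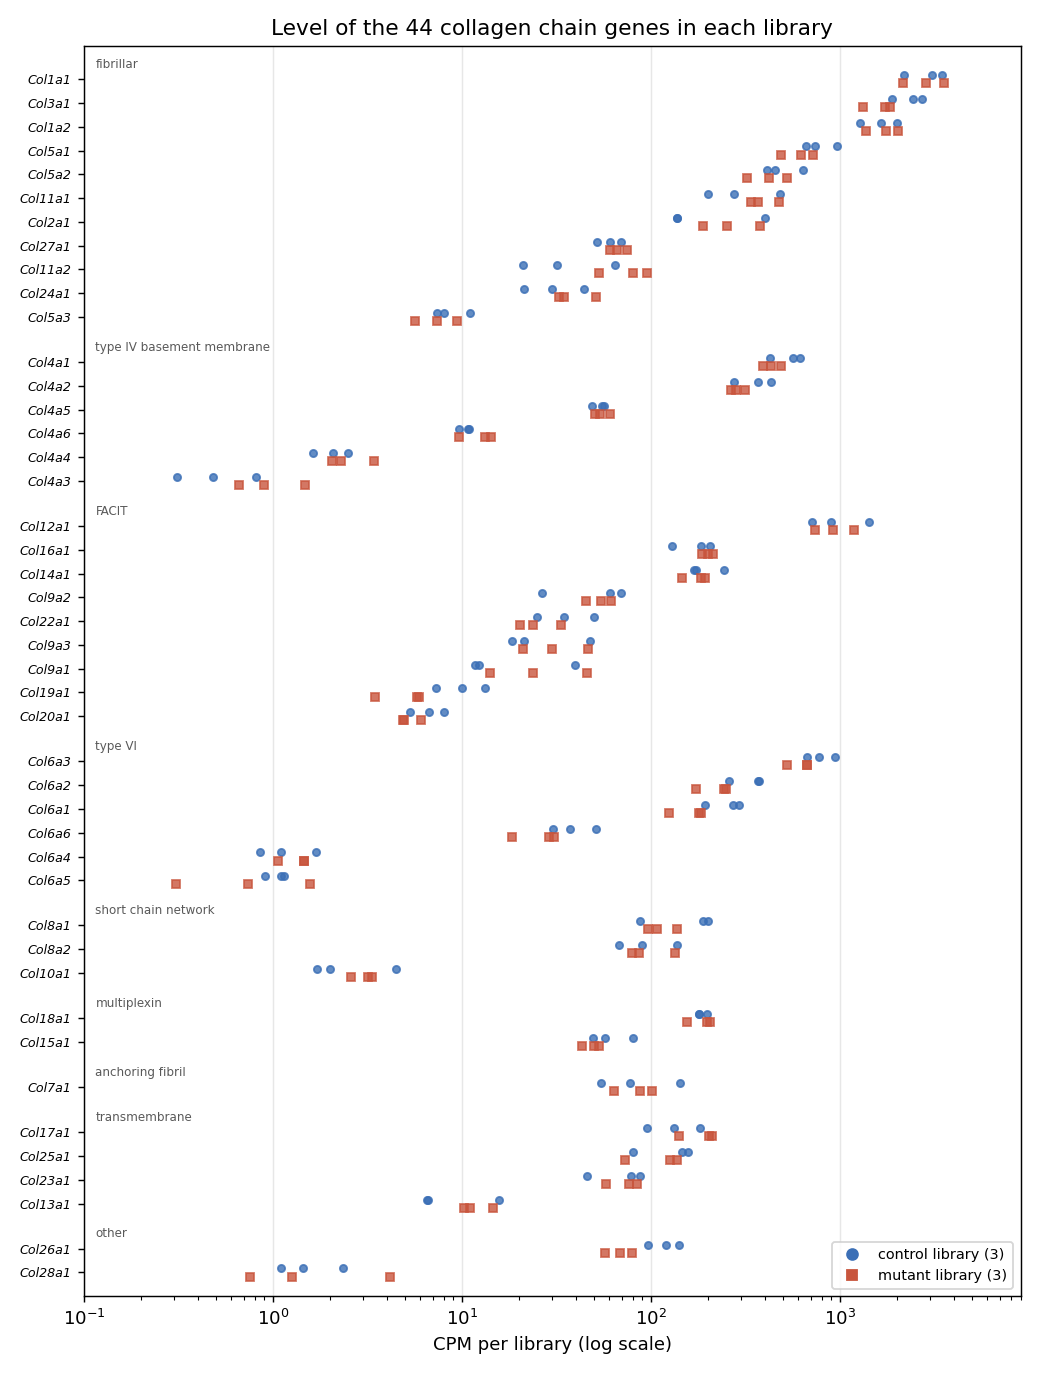
CPM on a log axis for each of the 44 collagen chain genes, grouped by chain class, with 1 circle for each of 3 control libraries and 1 square for each of 3 mutant libraries. Levels span Col6a5, with a lowest value of 0.308 CPM, to Col1a1, with a highest value of 3548 CPM, and for most members circles and squares overlap.

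Against controls, 0 of the 44 chains passed the threshold of 0.05 on the adjusted p in limma, where 0.479% of all genes did (105 of 21938, with 43 or 0.196% higher and 62 or 0.283% lower in mutants). At an unadjusted p below 0.05 in the same fit, 7 chains were lower in mutants (Col26a1, Col19a1, Col6a1, Col6a2, Col3a1, Col6a6 and Col6a3) and 1 was higher (Col11a2), where 8.07% of all genes were lower and 13.4% higher. Values of the 2 groups did not overlap for 6 chains, all lower in mutants, with 10.8% of all genes in that state and 17.1% in the opposite one. The log2 change, mutant minus control on log2(CPM + 1), was below 0 for 23 chains and above 0 for 21, with a median of -0.02 beside 0.04 over all genes. The counts moved with single libraries. Without control replicate 1 there were 4 lower and 6 higher, where 7.1% and 10.2% of all genes were. Without control replicate 3 there were 11 lower and 0 higher, where 7.8% and 9.9% of all genes were. Without control replicate 2 there were 3 higher (15.4% of all genes), and without mutant replicate 7 there were 4 lower (4.7% of all genes). The all-gene count of 105 was 0 without control replicate 1 or 3 or mutant replicate 5 or 6, was 2 without mutant replicate 7 and was 452 without control replicate 2.

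**Figure D2:**
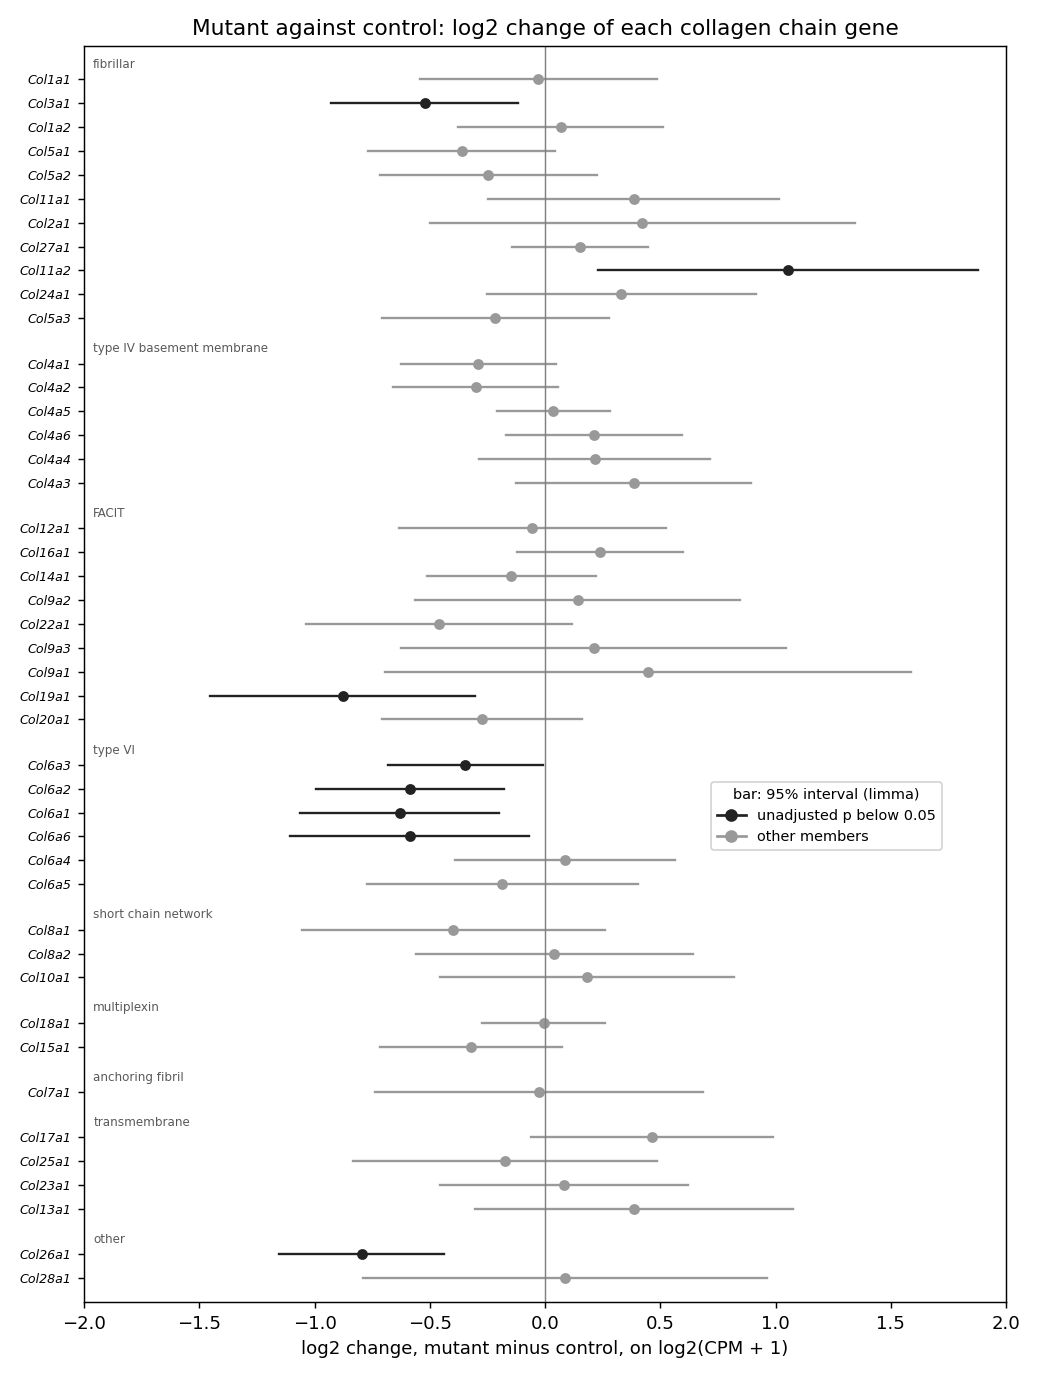
Log2 change of each collagen chain gene, mutant minus control on log2(CPM + 1), with its 95% interval from limma, grouped by chain class and black where the unadjusted p is below 0.05. Black points are Col11a2 on the right (1.05) and 7 genes on the left, 4 of them type VI chains.

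Type VI was the class with the lowest median change. Its 6 chains had a median of -0.47 on the log2 scale, with 5 of them below 0. At an unadjusted p below 0.05 in limma 4 were lower in mutants, beside 8.07% of all genes. Without mutant replicate 7 that limma p was 0.173 for Col6a3 and 0.111 for Col6a6, and without control replicate 1 it was 0.16 and 0.12. Col6a1 and Col6a2 stayed below 0.05 in both of these fits. Their limma p was 0.0519 and 0.0713 relative to type I collagen, and 0.0829 and 0.116 relative to all collagen chains, scales described below. For Col6a3 it was also 0.0804 with no trend in the prior, 0.0572 with median scaling, 0.0737 without control replicate 2 and 0.0512 without mutant replicate 6. For Col6a6 it was 0.054 with no trend and 0.0542 without control replicate 3. Col6a1 and Col6a2, the chains that pair with an alpha3-type chain to make a type VI molecule, lie on chromosome 10 on the same strand with 85162 bp between them. Col6a3, the usual alpha3 chain, lies on chromosome 1. The sequence before the start site of these 3 genes is shown because they are the chains of the class whose groups did not overlap. All are on the minus strand of GRCm38.p6 and come from RefSeq, with bases that GENCODE vM21 places in an exon left out: Col6a1 at chr10:76726169-76726294, Col6a2 at chr10:76623631-76623880 and Col6a3 at chr1:90843972-90844221. Capitals mark matches on either strand to CTTTGA, the core letters of the TCF/LEF site through which b-catenin acts, or to the CCAAT box (its own letters), the TATA box (TATAAA) or the GC box (GGGCGG).
Col6a1: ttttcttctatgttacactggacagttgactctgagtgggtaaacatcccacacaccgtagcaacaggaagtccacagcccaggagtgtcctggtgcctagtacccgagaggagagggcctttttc
Col6a2: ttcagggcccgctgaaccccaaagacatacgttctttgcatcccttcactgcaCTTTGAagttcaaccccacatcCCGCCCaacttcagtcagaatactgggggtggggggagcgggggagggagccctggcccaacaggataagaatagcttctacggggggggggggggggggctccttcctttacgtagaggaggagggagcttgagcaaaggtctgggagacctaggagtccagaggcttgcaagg
Col6a3: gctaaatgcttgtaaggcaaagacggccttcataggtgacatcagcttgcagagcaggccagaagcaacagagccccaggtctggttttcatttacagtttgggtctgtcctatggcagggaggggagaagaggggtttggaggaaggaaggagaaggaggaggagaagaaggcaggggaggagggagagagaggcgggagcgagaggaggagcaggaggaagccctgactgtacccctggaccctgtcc

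Col6a2 shows 1 match to CTTTGA, with its first base 197 bases before the RefSeq start, and 1 to GGGCGG on the opposite strand. Another CTTTGA in the Col6a1 window, 78 bases before the start, lies in bases that GENCODE counts as exon and is not shown. Promoter windows of 300 bases (250 before and 50 after the start) were found for 35 of the 44 members, in 38 windows, since some genes have more than 1. CTTTGA was in 23.7% of those windows and in 16.0% of all 32851 windows. For the other motifs the shares were 34.2% against 37.4% for CCAAT, 13.2% against 13.6% for TATAAA and 60.5% against 35.7% for GGGCGG. None of these matches overlaps another in the stretches shown, and a match describes the sequence only.

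Col6a1 measured 271, 293 and 193 CPM in control replicates 1 to 3, and 184, 179.5 and 125 CPM in mutant replicates 5 to 7. Every mutant library was below every control library, with mutant replicate 7 the lowest and control replicate 3 near the mutants. The ratio of mutant to control was 0.646 (95% interval 0.479 to 0.870), with an adjusted p of 0.120 in limma. Col6a2 had the same order, at 369, 371 and 259 CPM in controls and 249, 242 and 173 CPM in mutants. The groups were again apart, with control replicate 3 just above mutant replicate 5, and the ratio was 0.667 (0.502 to 0.884, limma adjusted p = 0.124). Col6a3, the longest of the abundant chains of the class, measured 938, 771 and 672 CPM in controls and 669, 669.7 and 527 CPM in mutants. Its lowest control and highest mutant value nearly met, and the ratio was 0.786 (0.623 to 0.993, limma adjusted p = 0.221).

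The remaining type VI chains are substitutes for the alpha3 chain with narrower expression, and lie side by side on chromosome 9. Col6a6 was the only one of them above 2 CPM, with 51.2, 30.3 and 37.4 CPM in controls and 30.7, 29.0 and 18.5 CPM in mutants. Here control replicate 2 was just under mutant replicate 5, and the log2 change was -0.59 ± 0.23 (SE, limma adjusted p = 0.188). Col6a4 and Col6a5 ranged from 0.308 to 1.68 CPM over all libraries and overlapped. The 6 chains summed to 1633, 1468 and 1163 CPM in controls and 1136, 1122 and 845 CPM in mutants, and their share of all collagen CPM was 9.72%, 10.5% and 10.9% against 8.01%, 8.96% and 8.14%. Both the sum and the share were lower in every mutant than in every control.

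Type VI collagen surrounds muscle fibres, although fibroblasts make it, and 8 skeletal muscle markers (Myod1, Myog, Myf5, Des, Actc1, Acta1, Ttn and Myh3) were also lower in mutants. They summed to 14035, 6661 and 9958 CPM in controls and 4421, 5480 and 4521 CPM in mutants, and 5 of the 8 passed the threshold in limma. The palatal mesenchyme markers summed to 831 to 1037 CPM in controls and 700.5 to 860 CPM in mutants, and overlapped. Of these 8, 7 had a log2 change below 0, with a median of -0.18, where 43.9% of all genes were below 0. At an unadjusted p below 0.05 in limma 1 was lower (Twist1), beside 8.07% of all genes. The part of muscle or of mesenchyme in the type VI values was not tested. In a tissue sample, fewer cells of a type and less RNA per cell cannot be told apart.

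**Figure D3:**
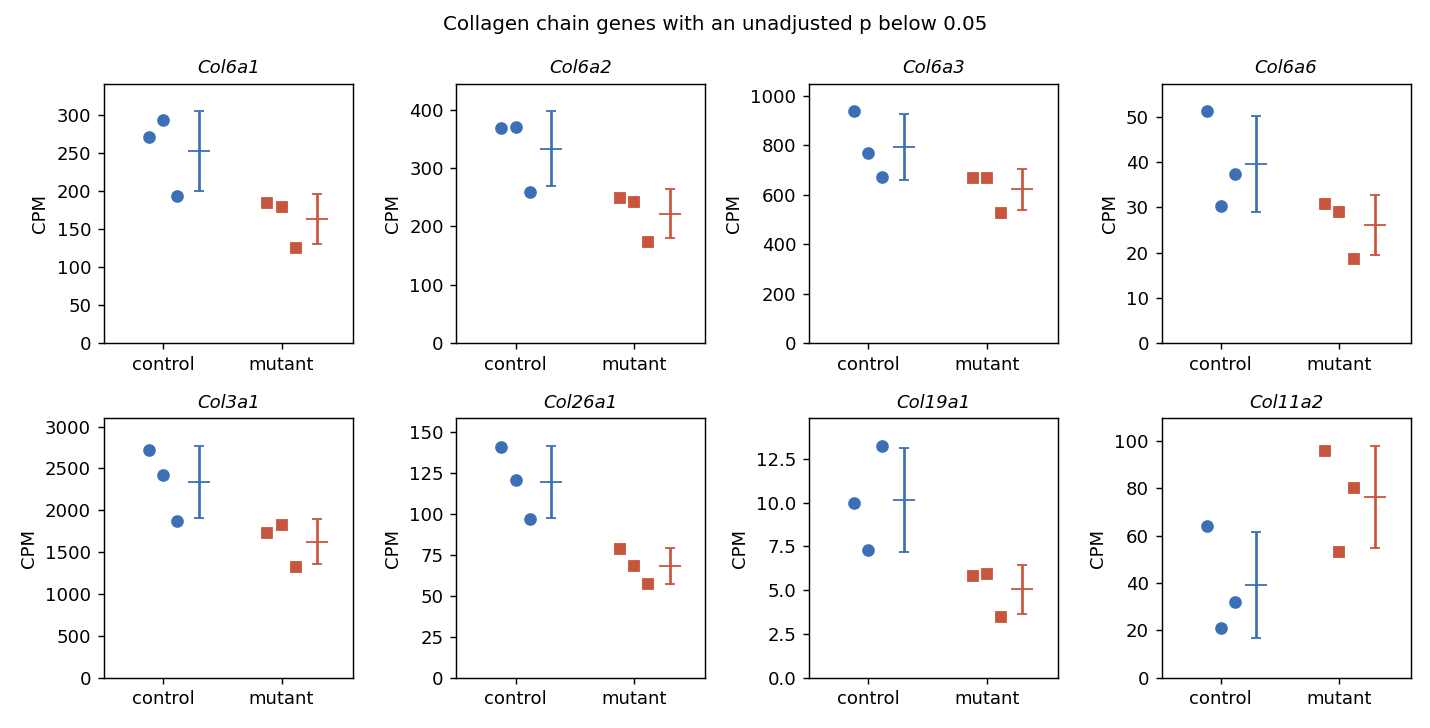
CPM per library of the 8 collagen chain genes with an unadjusted p below 0.05, with circles for 3 control libraries, squares for 3 mutant libraries and bars for the mean ± SD. Mutant and control points are apart for Col6a1, Col6a2, Col6a3, Col3a1, Col26a1 and Col19a1 and overlap for Col6a6 and Col11a2.

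Among the fibrillar chains, Col3a1 was lower in mutants without overlap while both type I chains were near level. Type I collagen, made of Col1a1 and Col1a2, is the main fibril protein of bone, tendon and skin. Col1a1 measured 3475, 3044 and 2186 CPM in controls and 3548, 2857 and 2148 CPM in mutants. The 2 groups covered the same range, and the ratio was 0.980 with a 95% interval of 0.686 to 1.40. Col1a2 measured 1992, 1648 and 1274 CPM in controls and 2019, 1747 and 1365 CPM in mutants, with a ratio of 1.05 (0.770 to 1.43). Both intervals are wide, so a modest difference in either chain was not detectable with these libraries.

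Col3a1 (chr1:45311538-45349706, plus strand, GRCm38) encodes the chain of type III fibrils, which mix with type I in soft and stretchable tissue. It measured 2720.3, 2417 and 1877 CPM in controls and 1728, 1827 and 1319.8 CPM in mutants. Every mutant library was below every control library, with control replicate 3 just above mutant replicate 6. The ratio was 0.696 (0.526 to 0.922, limma adjusted p = 0.15). Col5a1 and Col5a2 encode type V chains, which start type I fibrils and limit their width. Col5a1 was 967, 734 and 657 CPM in controls and 722, 622 and 489 CPM in mutants (ratio 0.778, limma adjusted p = 0.279). Col5a2, which lies 24615 bp from Col3a1 on chromosome 1 in the opposite direction, was 638, 453 and 408 CPM in controls and 525, 419 and 319.9 CPM in mutants (ratio 0.843, limma adjusted p = 0.525). Both overlapped between groups, and the third type V chain, Col5a3, stood at 5.63 to 11 CPM. Col24a1 and Col27a1, the remaining fibrillar chains apart from types II and XI, were at 21.3 to 50.8 and 51.5 to 74.9 CPM and overlapped. Over the 11 fibrillar chains the median log2 change was 0.07, with 5 below 0 and 6 above.

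The basement membrane chains split by abundance. Col4a1 and Col4a2, which make the type IV collagen of nearly all basement membranes, measured 616, 566 and 425 CPM and 433, 367 and 275 CPM in controls. In mutants they were 485, 429 and 389.6 CPM and 313, 283 and 265 CPM. The highest mutant values lay among the controls in both, and limma gave ratios of 0.818 (0.648 to 1.03) and 0.812 (0.634 to 1.04), with adjusted p of 0.296 and 0.305. The pair sits head to head on chromosome 8, with start sites 21 bp apart on opposite strands. Their ratio, Col4a1 over Col4a2, was the steadiest of the 11 chain ratios computed, from 1.42 to 1.55 over the 6 libraries. Col4a5 and Col4a6, the X-linked chains of epithelial and muscle basement membranes, were at 48.7 to 61.0 and 9.68 to 14.3 CPM, and Col4a3 and Col4a4 did not exceed 3.42 CPM. All 4 overlapped, with log2 changes between 0.04 and 0.38. Endothelial markers summed to 180.0 to 291.9 CPM in controls and 209.7 to 296.4 CPM in mutants, and pericyte markers to 246.5 to 337.1 and 225.2 to 285.9 CPM.

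Of the FACIT chains, Col19a1 (chr1:24261890-24587472, minus strand, GRCm38) was the one whose groups did not overlap. It measured 9.998, 7.29 and 13.2 CPM in controls and 5.79, 5.93 and 3.45 CPM in mutants. The highest mutant was under the lowest control, control replicate 2, and the ratio was 0.544 (0.365 to 0.811, limma adjusted p = 0.113). Col19a1 is known from embryonic muscle, and Col22a1 from the junctions between muscle and tendon. Col22a1 stood at 50, 25.1 and 34.5 CPM in controls and 33.6, 23.6 and 20.2 CPM in mutants, with overlap (log2 change -0.46 ± 0.25, limma adjusted p = 0.330). The muscle marker sum was likewise lower in mutants, as given above, and its part in these values was not tested.

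The FACIT chains with a mean of at least 100 CPM were Col12a1, Col14a1 and Col16a1. Col12a1, which coats type I fibrils in tendon and fascia, was 1415, 889.9 and 709.7 CPM in controls and 1179, 922 and 734 CPM in mutants. Control replicate 1 was the highest of all, and the ratio was 0.963 (0.645 to 1.44). Col14a1, a relative of Col12a1 with a similar place on fibrils, ranged from 168 to 244 CPM in controls and 146 to 193 CPM in mutants. Col16a1 ranged from 128 to 204 CPM in controls and 186 to 212 CPM in mutants, and Col20a1 from 4.89 to 8.0 CPM over all libraries. The 9 FACIT chains had a median log2 change of -0.05, with 5 below 0 and 4 above.

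All 8 chains of the cartilage list (Col2a1, Col9a1, Col9a2, Col9a3, Col10a1, Col11a1, Col11a2 and Col27a1) had a log2 change above 0, with a median of 0.30, but 0 of them were without overlap, and 56.1% of all genes were above 0. Without control replicate 3 only 5 of the 8 were above 0 (Col9a2 was at -0.28, Col9a3 at -0.04 and Col10a1 at -0.01), and without mutant replicate 7 there were 7 (Col9a3 was at -0.08). Col11a2 (chr17:34039437-34066685, plus strand, GRCm38), a chain of the type XI collagen that lies within cartilage fibrils, had the log2 change farthest from 0 of the 44 members with all 6 libraries in. It measured 64.1, 21.0 and 31.9 CPM in controls and 95.5, 52.9 and 80.1 CPM in mutants. Only control replicate 1 reached into the mutant range, above mutant replicate 6, and the ratio was 2.08 (1.17 to 3.67, limma adjusted p = 0.152). Relative to the sum of all collagen chains, a scale chosen after the data were seen, the limma adjusted p of Col11a2 was 0.00372, and over all alternatives it lay between 0.00372 and 0.368. With a library left out its log2 change ran from 0.70 to 1.48, and without control replicate 2 (0.70) or mutant replicate 5 (0.87) that of Col19a1 was farther from 0 (-1.08 and -0.97). Its partner Col11a1 measured 481, 273 and 201 CPM in controls and 473, 339 and 368 CPM in mutants. Control replicate 1 was the highest of the 6 libraries for Col11a1, and the ratio was 1.31 (0.843 to 2.02, limma adjusted p = 0.456).

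Col2a1, the main collagen of cartilage, measured 399, 136 and 137 CPM in controls and 254, 188 and 378 CPM in mutants. Control replicate 1 was above all mutants and the other controls below all of them. The ratio was 1.34 with an interval of 0.707 to 2.54 (limma adjusted p = 0.582). The type IX chains decorate type II fibrils and had the same high library among controls: Col9a1 was 39.5, 11.7 and 12.3 CPM in controls and 23.6, 14 and 45.8 CPM in mutants. Col9a2 and Col9a3 ranged from 26.5 to 69.2 and from 18.4 to 47.6 CPM, and Col10a1, which marks hypertrophic chondrocytes, stood at 1.71 to 4.49 CPM. Control replicate 1 was the highest control for 7 of the 8, and for 28 of all 44 members. Over the cartilage list the median coefficient of variation was 55.8% in controls and 23.2% in mutants, beside 22.7% and 19.5% for the other members.

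Without control replicate 1 the median change of the cartilage list was 0.68. Of all 44 chains, 6 (Col11a1, Col11a2, Col13a1, Col16a1, Col2a1 and Col9a1) were then higher at an unadjusted p below 0.05 in limma. Col13a1 and Col16a1 are not on the cartilage list, and 10.2% of all genes were higher in the same fit. Without control replicate 3 the median of the cartilage list was 0.07. Of 9 cartilage markers 8 were measured (Sox9, Sox5, Sox6, Acan and others), all with a log2 change above 0 and 0 past the threshold. The number above 0 was 5 without control replicate 2, 7 without control replicate 3 and 4 without mutant replicate 7. They summed to 292.2, 183.5 and 184.6 CPM in controls and 294.7, 295.3 and 353.3 CPM in mutants, so the sums were apart by the margin between control replicate 1 and mutant replicate 5. As single genes, 1 of the 8 (Sox5) was higher without overlap, where 17.1% of all genes were. The rest overlapped, among them Acan with 41.7, 11.1 and 11.6 CPM in controls and 34.7, 21.3 and 44.6 CPM in mutants. Osteoblast markers summed to 148.7, 134.6 and 362.3 CPM in controls and 801.9, 466.1 and 329.0 CPM in mutants, with overlap. All 6 that were measured had a log2 change above 0, with a median of 0.87, where 56.1% of all genes were above 0. Of the 6, 1 (Dmp1) was without overlap and 0 passed the adjusted threshold in limma. The part of cartilage or bone content in the collagen values was not tested.

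**Figure D4:**
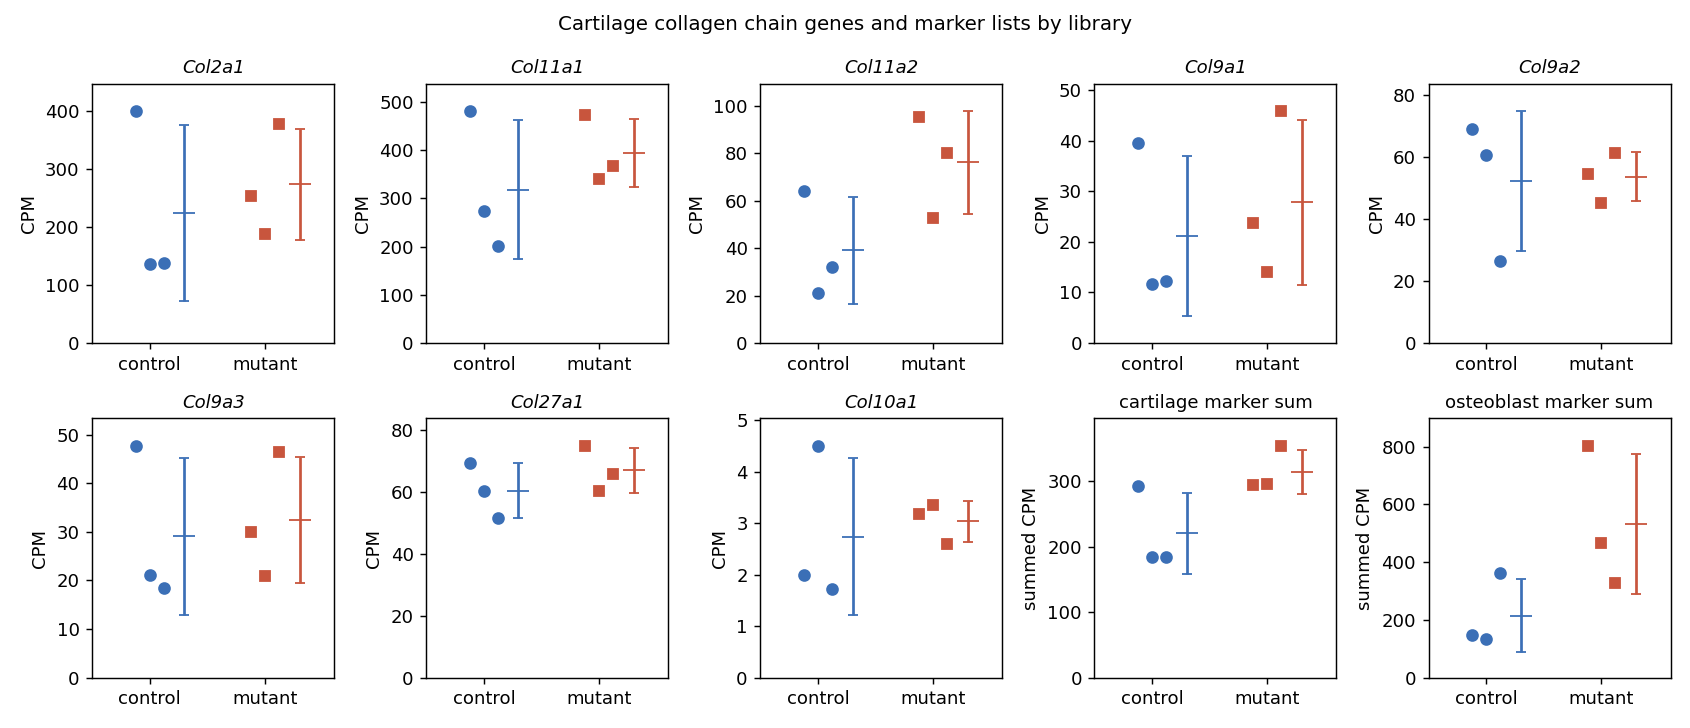
CPM per library of the 8 cartilage collagen chain genes and the summed CPM of cartilage and osteoblast markers, with circles for 3 control libraries, squares for 3 mutant libraries and bars for the mean ± SD. In 7 of the 8 gene panels the leftmost circle, control replicate 1, is the highest control.

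Col26a1 had the smallest p of the 44. It encodes a short secreted collagen with an EMI domain, and lies at chr5:136741759-136883209 on the minus strand of GRCm38, as annotated by GENCODE. It measured 141, 121 and 96.6 CPM in controls and 78.8, 68.3 and 57.2 CPM in mutants. Every mutant was below every control. The ratio was 0.576 (0.450 to 0.739), or -0.79 ± 0.16 (SE) on the log2 scale, and the adjusted p in limma was 0.0627. Over the alternatives tried that adjusted p lay between 0.0589 and 0.303.

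The other classes gave wide overlap. Col17a1, a chain of the hemidesmosomes that hold epithelium to its basement membrane, measured 94.9, 181 and 132 CPM in controls and 141, 210.3 and 202 CPM in mutants (ratio 1.38, limma adjusted p = 0.284). Epithelial markers summed to 896.7 to 1498.8 CPM in controls and 1152.5 to 1736.3 CPM in mutants. Col7a1, the anchoring fibril chain under the epithelium, ranged from 54.1 to 142 CPM in controls and 63.4 to 101 CPM in mutants. Col25a1 and Col13a1, transmembrane chains that act where nerve meets muscle, ranged from 73.0 to 156 and from 6.49 to 15.6 CPM. Col23a1, Col8a1, Col8a2, Col15a1, Col18a1 and Col28a1 overlapped as well. Of these, Col18a1, whose cleaved end is endostatin, differed least between groups, with 185 CPM as the mean of each group and a ratio of 0.996 (0.828 to 1.20).

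For several pairs of chains that share a molecule, the ratio varied less between libraries than either level. Among the 11 ratios only Col3a1 over Col1a1 pairs chains of different molecules, with a span of 1.76-fold against 2.06-fold and 1.65-fold for the chains. A wider set of such pairs was not put beside them, and control replicate 1 was the highest control for 28 of all 44 members. A steady ratio is therefore not shown to be particular to chains of 1 molecule. Col1a1 over Col1a2 ran from 1.57 to 1.85, a span of 1.17-fold over the 6 libraries, while the chains themselves spanned 1.65-fold and 1.58-fold. Col6a1 over Col6a2 ran from 0.722 to 0.791, a span of 1.10-fold against 2.35-fold and 2.15-fold for the chains. Col5a1 over Col5a2 spanned 1.18-fold. Looser pairs were Col11a1 over Col11a2 with 2.84-fold, Col8a1 over Col8a2 with 2.78-fold and Col9a2 over Col9a3 with 2.18-fold. Of the 11 ratios, 2 separated the groups: Col3a1 over Col1a1 was 0.812 ± 0.041 in controls and 0.580 ± 0.082 in mutants, and Col6a3 over Col6a2 was 2.41 ± 0.284 and 2.83 ± 0.192 (SD, n = 3 each, exact two-sided permutation p = 0.1 for both, the smallest that 3 against 3 allows). Adjusted over the 11 ratios by Benjamini-Hochberg, both gave a permutation p of 0.44.

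Set against type I collagen, a comparison chosen after the levels had been seen, more chains separated the groups. Per 100 CPM of Col1a1 and Col1a2 together, Col3a1 was 49.8, 51.5 and 54.2 in controls and 31.0, 39.7 and 37.6 in mutants. Col6a1 was 4.96, 6.25 and 5.58 against 3.30, 3.90 and 3.55, and Col26a1 was 2.57, 2.57 and 2.79 against 1.42, 1.48 and 1.63. In each of these every mutant lay below every control, with the controls of Col6a1 more spread than those of Col3a1 and Col26a1. On this scale 12 of the 44 chains were lower in every mutant (Col3a1, Col4a1, Col4a2, Col5a1, Col5a2, Col6a1, Col6a2, Col6a3, Col6a6, Col19a1, Col20a1 and Col26a1) and 0 higher, where 3.49% of all genes were lower and 8.98% higher. With Col1a1 alone as the reference the count was 7. In limma on the same scale 0 passed the adjusted threshold, and 2 were lower (Col19a1 and Col26a1) and 1 higher (Col11a2) at an unadjusted p below 0.05, where 2.68% and 6.81% of all genes were. All of these values share 1 denominator, so they are not separate observations. In CPM, 6 chains were lower without overlap and 0 higher, beside 10.8% and 17.1% of all genes. Dividing by type I thus lowered the shares of all genes but raised the count of chains, so 3.49% is not a like background for the 12.

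**Figure D5:**
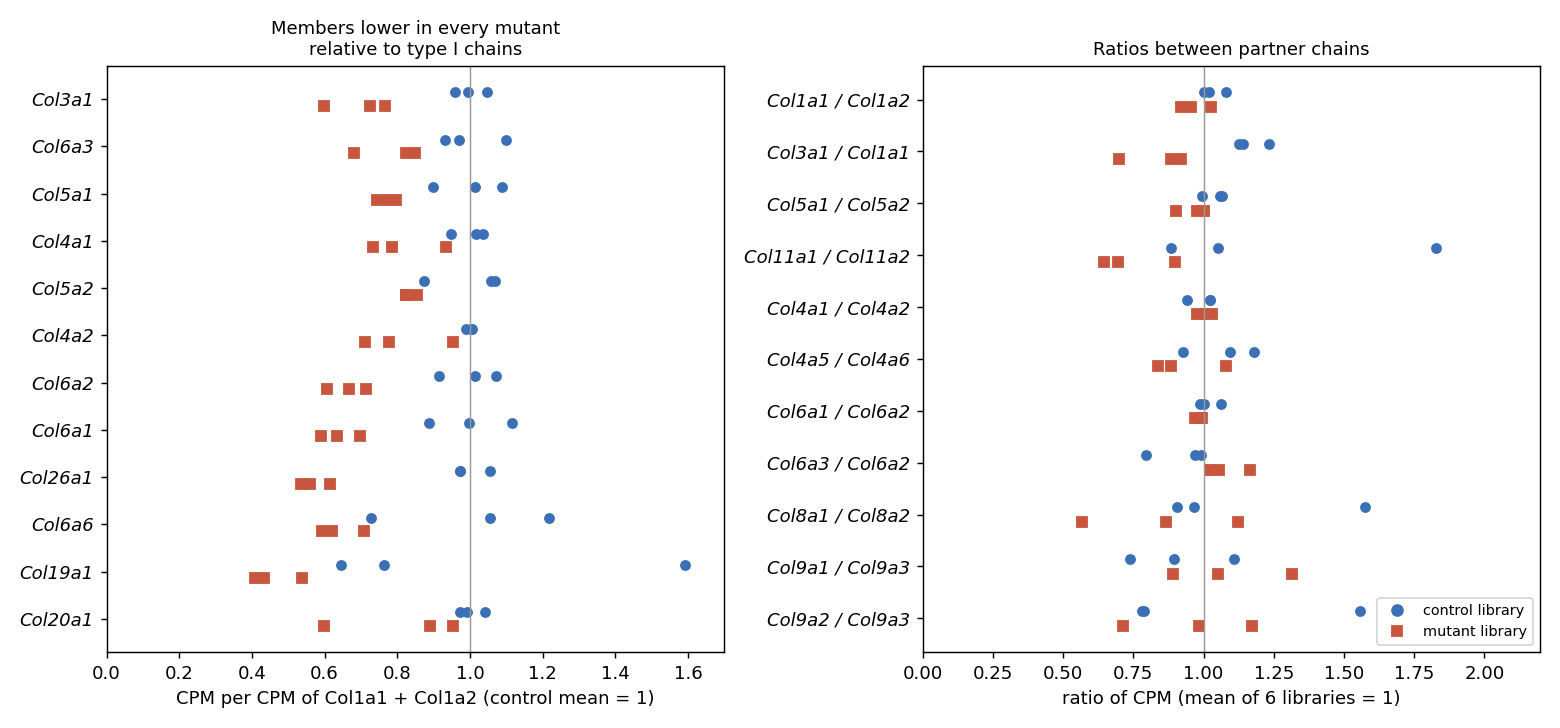
Left, CPM of the 12 chains lower in every mutant library per CPM of Col1a1 plus Col1a2, scaled to a control mean of 1. Right, 11 ratios between chains scaled to the mean of 6 libraries, with circles for control and squares for mutant libraries. Col4a1 over Col4a2 and Col6a1 over Col6a2 are the narrowest rows. Col3a1 over Col1a1, the pair from different molecules, has the groups apart.

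The enzymes, chaperones and receptors of the collagen pathway formed a list of 44 measured genes. Of these 0 passed the threshold in limma, and 10 were lower and 3 higher at an unadjusted p below 0.05, where 8.07% of all genes were lower and 13.4% higher. Without overlap 5 were lower and 3 higher, where 10.8% and 17.1% of all genes were, and 5 of 44 is close to that share. Their median log2 change was -0.22, with 36 of 44 below 0, beside 43.9% of all genes below 0. Relative to all collagen chains, a scale on which 72.1% of all genes were above 0, 25 of the 44 were below 0. The 13 hydroxylases and their partners, which act on proline and lysine of the chains, had a median of -0.27 and 5 lower at an unadjusted p below 0.05, beside 8.07% of all genes. P3h4, a partner of lysyl hydroxylase, was 36.8, 41.0 and 30.3 CPM in controls and 26.3, 28.6 and 23.7 CPM in mutants. Plod1, a lysyl hydroxylase, was 40.9 ± 8.12 against 27.9 ± 4.49 CPM, and Ppib, a prolyl isomerase of the same complex as prolyl 3-hydroxylase, 182 ± 15.2 against 149.8 ± 13.5 CPM. P3h4 and Ppib did not overlap between groups and Plod1 did, with limma adjusted p of 0.125, 0.170 and 0.134.

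Of the 5 lysyl oxidases, which cross-link finished fibrils, 3 were lower and 1 higher at an unadjusted p below 0.05, beside 8.07% and 13.4% of all genes. Loxl2 was 172 ± 31.0 CPM in controls and 128 ± 19.1 CPM in mutants (limma adjusted p = 0.160). Loxl4 was 1.52, 2.30 and 3.12 CPM in controls and 4.07, 4.33 and 4.44 CPM in mutants (limma adjusted p = 0.128), with no overlap and low levels in both groups. The list of propeptide proteinases and enhancers holds 8 genes, some of which encode enzymes that trim procollagen before fibrils form. All 8 had a log2 change below 0, with a median of -0.18. The number below 0 was 7 without control replicate 1 or mutant replicate 7, 6 without control replicate 2 and 4 relative to all collagen chains. Tll2 among them was 4.95 ± 1.57 against 2.60 ± 0.832 CPM (limma adjusted p = 0.160). The 8 receptors had a median of -0.14, and Itga10, a collagen-binding integrin subunit of cartilage cells, was 4.60, 3.96 and 3.37 CPM in controls and 11.1, 6.58 and 6.50 CPM in mutants. Every mutant was above every control for Itga10 (limma adjusted p = 0.104). Mia2, which helps bulky cargo leave the endoplasmic reticulum, was 75.2 ± 5.90 against 88.5 ± 2.59 CPM without overlap (limma adjusted p = 0.184).

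The authors also deposited a filtered table of 2432 genes, 11.1% of all, whose group means were all at least 1.5-fold apart. It held 6 of the 44 collagen chains, 13.6% of them: Col11a2, Col19a1, Col26a1, Col6a1, Col6a2 and Col6a6. How its genes were selected beyond that fold is not known here, and since it used the same contrast nothing further is read from the count.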

How the data were processed

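The submitters' processing notes name STAR, without a version, and the mm10 build for the 6 soft palate libraries. The counting step, annotation, library kit and strand: not given in the sources used here. The deposited tables hold CPM with a constant of 0.0001 added to each value, as found from the values. Samples are rows, and 0 columns of per-sample values were left unused. Between 63.9% and 68.1% of low values were whole reads within 0.02, so whole reads were not recovered and no count model was used. Floors cover counting error only.

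The constant was removed, and log2(CPM + 1) was compared between groups in R 4.3.3 by limma 3.58.1 with a trended prior and Benjamini-Hochberg adjustment over all 21938 genes. A log2 change on this scale understates that of low genes. On simulated libraries with 200 of 21938 genes changed and a coefficient of variation of 15%, the fit for mutant against control found 22% of genes raised 1.5-fold, 98% raised 2-fold, 100% raised 3-fold and 82% lowered to 0.5-fold, with 10 false calls. The collagen chains varied more than that, with a median in controls of 55.8% for the cartilage list and 22.7% for the other members. The shares found are therefore too high for chains with such a spread.

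The members and lists were chosen with earlier results of these data known. Members were named if called, if the unadjusted p was below 0.05, if the mean was at least 100 CPM or if among the 2 most abundant of a class of at least 3, with the 8 pathway genes of smallest p, Ctnnb1 and Osr2. Members named beyond these, the chain ratios and the scales relative to collagen were chosen after the values were seen. Alternatives changed the pseudocount (0.1), low-level filter (1 CPM), scaling, prior and threshold, and left out each library. Positions and transcript lengths (of the transcript with the longest coding sequence) are from GENCODE vM21, whose GRCm38 assembly is the same as mm10, and promoter sequences from RefSeq on GRCm38.p6. Exons of other genes overlap at most 6.1% of a member's exon length, and without knowledge of strand such reads cannot be assigned. Col21a1 was not analysed here.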

Additional observations from a re-analysis of the deposited data

How the results depend on the processing

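The count of 0 collagen chains past the adjusted threshold in limma (8 at an unadjusted p below 0.05) stayed 0 with a pseudocount of 0.1, a filter at a mean of 1 CPM, median scaling, no trend, a robust prior and each library left out (0 to 0). It was 1 with a threshold of 0.1 (Col26a1) and 1 relative to all collagen chains, a scale added after the data were seen (Col11a2, log2 change 1.20, adjusted p = 0.00372). On that scale 632 of 21938 genes passed the threshold of 0.05, and the median over all genes was 0.17, beside 0.04 in CPM. The chains lower at an unadjusted p below 0.05 numbered 2 relative to type I collagen and 2 relative to all collagen chains, and 4 to 11 with a library left out. Of all genes, 2.68%, 2.0% and 4.7% to 8.4% were lower in those fits. Chains that were higher numbered 4 relative to all collagen chains and 0 to 6 with a library left out, where 12.1% and 8.6% to 15.4% of all genes were. For the pathway list the count of 0 was 13 at an unadjusted p below 0.05, where 21.4% of all genes were, and 0 with each library left out. The chains lower in every mutant relative to type I numbered 7 with Col1a1 alone as the reference and 12 to 15 with a library left out. Leaving a library out could not lower that count of 12, because groups that are apart stay apart with fewer values. The range of 12 to 15 is therefore no check of it. Among the members the sign turned relative to all collagen chains for Col12a1 (0.09), Col14a1 (0.00), Col18a1 (0.14), Col1a1 (0.12) and Col7a1 (0.12), and for Col18a1 with median scaling (0.02). Among the members named by the rule whose sign turned with a library left out, the log2 change ran from -0.27 to 0.22 for Col12a1, -0.24 to 0.03 for Col14a1, -0.08 to 0.12 for Col18a1, -0.22 to 0.16 for Col1a1, -0.10 to 0.22 for Col1a2, -0.47 to 0.11 for Col25a1 and -0.19 to 0.31 for Col8a2. The median of type VI ran from -0.56 to -0.30, fibrillar from -0.10 to 0.22, type IV from 0.03 to 0.21, FACIT from -0.27 to 0.22, short chain from -0.20 to 0.13, transmembrane from 0.00 to 0.31, cartilage from 0.07 to 0.68 and all chains from -0.20 to 0.05. The cause was not tested. Over all genes, 0 passed the adjusted threshold with no trend in the prior (4516 at an unadjusted p below 0.05) and 174 with a robust prior. No paired analysis was possible because the groups share no replicate number.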
